A study of Komagataella pastoris with 12 samples.

Results

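The genes described here carry carbon through the tricarboxylic acid (TCA) cycle, the pyruvate dehydrogenase complex, ethanol and acetate metabolism, the pentose phosphate pathway and the trehalose and glycogen stores of the yeast *Komagataella phaffii* (*Pichia pastoris*). They were taken from the deposited expression table by words in its gene descriptions, such as aconitase, isocitrate, malate, alcohol dehydrogenase, transketolase, trehalose or glycogen, and 69 of the 5080 transcripts were found in this way. RNA-seq compared 2 strains, each with 3 biological replicates per temperature. The parent was a recombinant GS115 strain that expresses a heterologous lipase. G14 was 1 isolate obtained from it by plasma mutagenesis and stepwise adaptive evolution at rising temperature, and it still carried the lipase gene. Cells were harvested in the logarithmic phase in rich YPD medium at 30 or 37 °C, which gave the groups Parent_30, Parent_37, G14_30 and G14_37. As G14 is 1 evolved isolate, its mutations cannot be told apart from each other by these libraries. The gene descriptions are the source of every enzyme name used here. Letters in brackets mark genes that share a description.

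In yeasts, pyruvate from glycolysis either enters the mitochondrion, where the pyruvate dehydrogenase complex turns it into acetyl-CoA for the TCA cycle, or is decarboxylated to acetaldehyde, which alcohol dehydrogenases reduce to ethanol and aldehyde dehydrogenases oxidise to acetate. The glyoxylate enzymes isocitrate lyase and malate synthase bypass the carbon dioxide-releasing steps of the TCA cycle and allow growth on acetate or ethanol. *K. phaffii* respires most of its sugar when oxygen is plentiful. The pentose phosphate pathway yields NADPH and pentoses, and trehalose and glycogen are stored carbohydrates, of which trehalose is also known as a protectant of proteins and membranes in heat.

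By role, as read from their descriptions, 13 genes were placed in the TCA cycle with the related isocitrate dehydrogenases. The glyoxylate bypass with pyruvate carboxylation had 4 and pyruvate dehydrogenase 4. Ethanol and acetate metabolism had 12, the pentose phosphate pathway 7, hexose phosphates 3, trehalose 4 and glycogen 7. The other 15 were taken by the same words but act elsewhere, for example in leucine and lysine synthesis, and are described last. All 69 passed the filter of a mean of at least 1 FPKM (fragments per kilobase of gene, scaled to the size of the library, a level per gene length). Their mean levels ran from 19.7 to 4708 FPKM with a median of 155, against a median of 72.2 over all transcripts. Of the 69, 24 lay in the upper 10% of all transcripts by mean level. None shared bases with another gene of the table, and 3 had a span longer than the counted length.

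The libraries held between 13428637 and 22047040 fragments on genes, so that 1 fragment on a gene of 1 kb equalled 0.0417 to 0.0822 FPKM. Replicates correlated at 0.977 to 0.996 (Pearson's r on log2 values across transcripts, which are not independent replicates) in Parent_30, Parent_37 and G14_30. In G14_37, replicate 1 correlated with replicates 2 and 3 at 0.88 and 0.863, and the other pair at 0.959. Replicate 1 of G14_37 therefore stood apart, and results that rest on it are given with and without it. The carbon genes were among those it affected: 32 of the 69 (46.4%) spanned more than 1 log2 unit between the 3 G14_37 libraries, against 16.4% of all transcripts. In the other groups the same count was 1 (1.45%) in Parent_30, 2 (2.90%) in Parent_37 and 5 (7.25%) in G14_30. Of all transcripts, 0.886%, 0.945% and 2.15% spanned as much in these groups, in that order. Replicate 1 was the farthest library in 27 of the 32 genes, highest in 19 and lowest in 8, which was not counted over all transcripts.

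**Figure D1:**
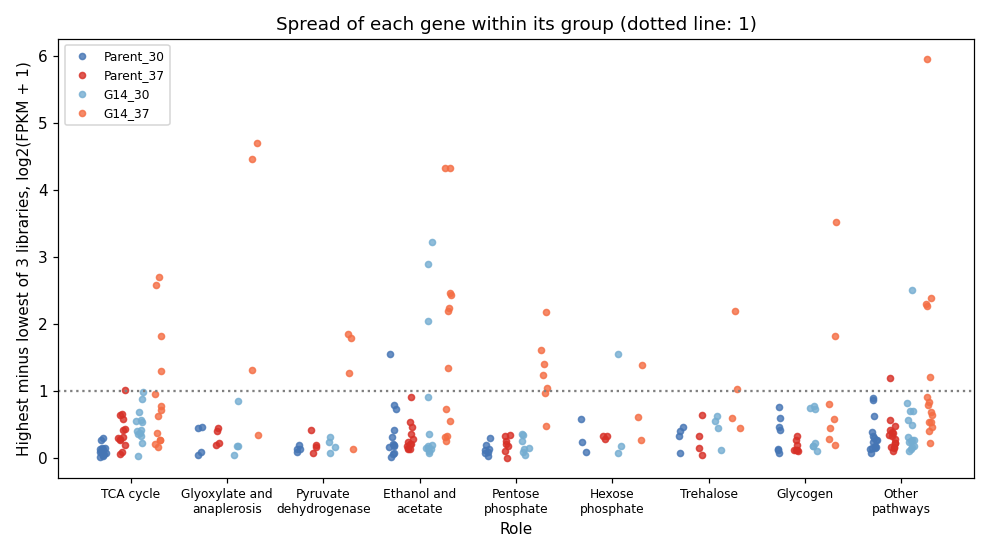
Range within each group (highest minus lowest of its 3 libraries on the log2(FPKM + 1) scale, vertical axis) for each of the 69 genes, arranged by role (horizontal axis), with 1 point per gene and group and small sideways offsets that carry no meaning. Most points of Parent_30, Parent_37 and G14_30 lie under the dotted line at 1, and 32 points of G14_37 lie above it.

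A gene was called where it passed both thresholds of the limma fit, namely a p under 0.05 after Benjamini-Hochberg adjustment across the 5080 transcripts and a change of more than 1 in either direction on the log2(FPKM + 1) scale. In the parent, 26 of the 69 genes were called between 37 and 30 °C, 9 higher and 17 lower, that is 37.7% where 21.6% of all transcripts were called (14% higher and 7.56% lower). In G14, 3 genes were called between 37 and 30 °C (4.35%, against 3.78% of all transcripts), 2 higher and 1 lower, where 2.22% and 1.56% of all transcripts were. Between the strains, 5 genes were called at 30 °C (7.25%, against 7.36%), all lower in G14, where 2.87% of all transcripts were higher and 4.49% lower. Among the 69 genes, limma placed 5 genes higher and 18 lower at an unadjusted p under 0.05, which was not counted over all transcripts. An adjusted p under 0.05, at any size of change, was reached by 16 of the 69, where 1454 of the 5080 transcripts reached it. With limma voom on the recovered fragments, 4 of the 69 were called lower and 0 higher. At 37 °C, 8 genes were called higher and 11 lower in G14 (27.5%, against 21.7%, of which 7.42% higher and 14.3% lower). The comparison of G14_37 with Parent_30 called 6 higher and 9 lower (21.7%, against 12.9%, of which 5.91% higher and 7.01% lower). The difference in heat response, which is the change from 30 to 37 °C in G14 minus that in the parent, was called for 13 genes (18.8%, against 15.4%), 10 of them with the G14 change higher and 3 lower, where 4.31% and 11.1% of all transcripts were. Over the comparisons, 39 genes were called at least once (56.5%, against 35.6% of all transcripts), a count that adds up comparisons with shared libraries. Rescaling each library to the same sum (TPM) moved the median of all transcripts to between 0.10 and 0.39, and the splits into higher and lower became 9 and 0 for heat in G14, 1 and 4 at 30 °C, 19 and 8 at 37 °C, 16 and 4 for G14_37 over Parent_30 and 13 and 1 for the difference in heat response. Under the same scaling the splits over all transcripts also moved towards higher, to 240 and 29, 248 and 178, 694 and 557, 796 and 171, and 288 and 467 in that order. It ended the calls of both isocitrate dehydrogenase subunits (-0.75 each), the ligase alpha subunit (-0.78), E1 beta (-0.72) and E1 alpha (-0.61) in G14_37 against Parent_30. At 37 °C it ended those of NADPH alcohol dehydrogenase (c) (-0.79), the trehalose phosphatase subunit (-0.92) and pyruvate carboxylase (-0.73) between the strains. It also ended the calls of fumarase at 30 °C (-0.84), 6-phosphogluconate dehydrogenase (-0.99) and aspartic semialdehyde dehydrogenase (-0.97) in the parent, the isopropylmalate carrier in G14 (-0.86), and the epimerase (-0.91) and aldehyde dehydrogenase (b) (-1.07) in the difference in heat response. These genes are PAS_chr4_0580, PAS_chr2-1_0120, PAS_chr3_0831, PAS_chr1-4_0593, PAS_chr2-2_0294, PAS_chr1-1_0357, PAS_chr1-3_0054, PAS_chr2-2_0024, PAS_chr3_0647, PAS_chr3_0277, PAS_chr3_0471, PAS_chr1-3_0186, PAS_chr1-4_0042 and PAS_chr4_0470. TPM scaling also added calls of genes as higher in G14_37 than in Parent_37. Among these were both isocitrate dehydrogenase subunits (1.14 and 1.05), E1 beta (1.21), fumarase (1.09), 6-phosphogluconate dehydrogenase (1.08) and the glycogen debranching enzyme (1.01). Comparisons with the same group share its libraries and are not independent of each other.

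**Figure D2:**
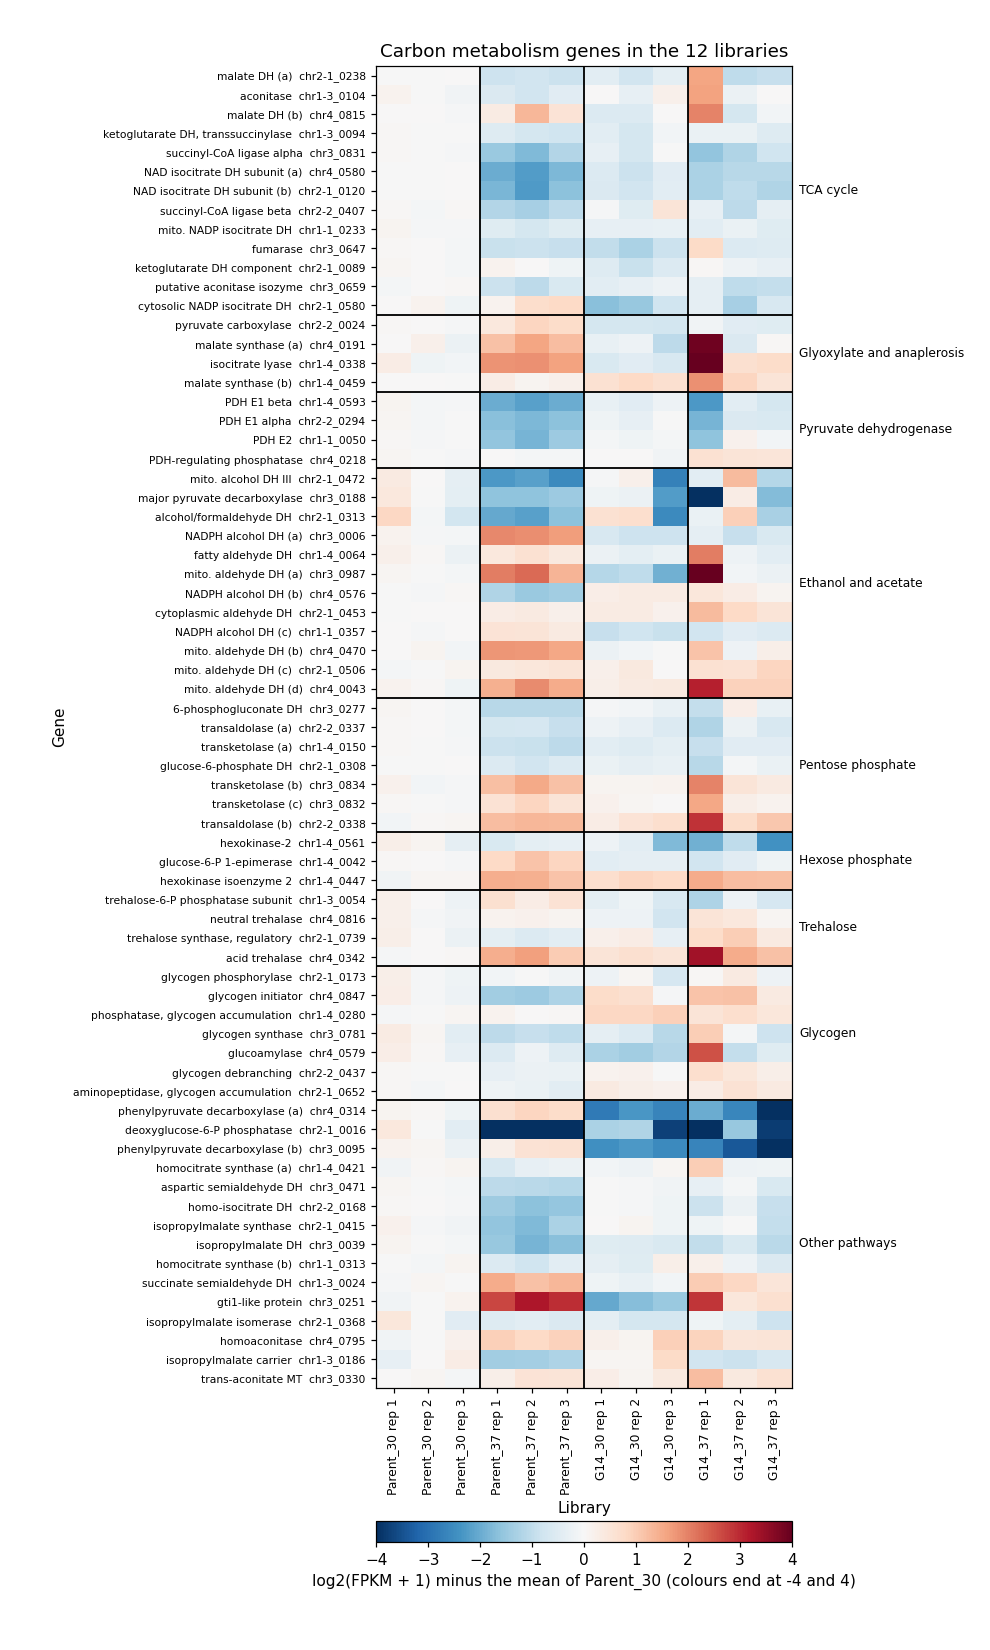
Level of the 69 genes (rows, by role) in the 12 libraries (columns), as log2(FPKM + 1) minus the mean of Parent_30, with colours that end at -4 and 4. The columns of Parent_37 are mainly blue for pyruvate dehydrogenase and the isocitrate dehydrogenase subunits, and the first column of G14_37 differs from the other two in many rows.

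The median log2 fold change of the 69 genes was -0.40 in the parent and 0.27 in G14 between 37 and 30 °C, while those of all transcripts were 0.04 and 0.00. Between the strains it was -0.31 at 30 °C and 0.33 at 37 °C, against -0.03 and 0.05 over all transcripts. Values in Parent_37 and Parent_30 did not overlap for 60 of the 69 genes, where this held for 76.4% of all transcripts. The corresponding counts were 30 for the heat comparison in G14 (background 42.1%), 39 for the strains at 30 °C (59.5%), 36 for the strains at 37 °C (58.3%) and 47 for G14_37 with Parent_30 (57.1%).

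In the TCA cycle, 4 of 13 genes were called lower in Parent_37 than in Parent_30, where 7.56% of all transcripts were. All 4 encode enzymes of steps between isocitrate and succinate. Lower levels were not confined to these steps. An adjusted p under 0.05 was reached by 8 of the 13 genes, where 3044 of the 5080 transcripts reached it. The median change of the role was -0.83, against 0.04 over all transcripts. Fumarase and malate dehydrogenase (a) were also lower in every Parent_37 library than in any of Parent_30, under the size threshold. Mitochondrial NAD-dependent isocitrate dehydrogenase oxidises isocitrate to alpha-ketoglutarate and is built of 2 kinds of subunit. Subunit (a), PAS_chr4_0580 (chromosome 4, 1133964 to 1135117, plus strand), was at 586, 575.8 and 598 FPKM in Parent_30 and at 148, 124 and 166 in Parent_37. It was at 400, 322 and 425 FPKM in G14_30 and at 242, 272 and 273 in G14_37. The 4 groups did not overlap, with Parent_30 highest, then G14_30, G14_37 and Parent_37. The log2 fold change was -2.01 (SE 0.13, adjusted p = 9.2e-07) in the parent and -0.53 (SE 0.13, adjusted p = 0.018) in G14, which passed the p but not the size threshold. The 2 changes differed by 1.47 (SE 0.19, adjusted p = 0.00025), and by 1.53 without replicate 1 of G14_37. RNA came from whole cultures, so fewer cells with a transcript and less of it per cell cannot be told apart.

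Subunit (b), PAS_chr2-1_0120 (chromosome 2, 219568 to 220668, plus strand), was at 564 to 575 FPKM in Parent_30, 116 to 182 in Parent_37, 336 to 425 in G14_30 and 234 to 282 in G14_37, again with no overlap between groups. Its heat responses differed by 1.34 (SE 0.22, adjusted p = 0.0013). The levels of the 2 subunit genes, which lie on different chromosomes, kept a ratio of 0.911 to 1.10 in all 12 libraries. Replicate 1 of G14_37, which stood apart for many genes, was within the range of the other libraries in this ratio (1.03).

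The 2 subunit genes of succinyl-CoA ligase, which forms succinate, also fell in the parent. The alpha subunit, PAS_chr3_0831, was at 548, 522 and 515 FPKM in Parent_30 and 190, 156 and 234 in Parent_37 (log2 fold change -1.47, SE 0.22, adjusted p = 0.00022). The beta subunit, PAS_chr2-2_0407, was at 356.8, 333 and 356.5 FPKM and then at 153, 137 and 170 (-1.19, SE 0.24, adjusted p = 0.0016). In G14_37 the alpha subunit was at 177, 228 and 303 FPKM and the beta subunit at 276.9, 167 and 269, so that each overlapped Parent_37, and each fell less than the size threshold within G14. Relative to Parent_30, G14_37 was lower in both isocitrate dehydrogenase subunits (-1.16 for each) and in the ligase alpha subunit (-1.19).

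Fumarase, which hydrates fumarate to malate, followed another order. PAS_chr3_0647 was at 252, 248 and 229 FPKM in Parent_30, 130, 134 and 128 in Parent_37, 122, 100 and 135 in G14_30 and 413, 166 and 170 in G14_37. G14_30 thus lay near the heated parent and below Parent_30 (-1.03, SE 0.28, adjusted p = 0.019), while all 3 G14_37 libraries were above all 3 G14_30 libraries. The difference in heat response was 1.83 (SE 0.40, adjusted p = 0.0054), and 1.40 without replicate 1. The lower level at 30 °C was no longer called when 1 of 3 particular libraries was left out, with adjusted p of 0.058 to 0.075.

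Cytosolic NADP-specific isocitrate dehydrogenase, PAS_chr2-1_0580, a source of NADPH outside the mitochondrion, was the TCA-related gene that was lower in G14 at both temperatures. It was at 77.5, 84.8 and 68.5 FPKM in Parent_30 against 23.3, 26.2 and 43.9 in G14_30, and at 84.7, 125 and 134 in Parent_37 against 59.6, 30.2 and 49.1 in G14_37. No G14 library reached a parent library of its temperature. The log2 fold change was -1.32 at each temperature (SE 0.28, adjusted p = 0.0051 at 30 and 0.0022 at 37 °C), and its heat responses differed by 0.01 (SE 0.40, adjusted p = 0.99). The mitochondrial NADP enzyme, PAS_chr1-1_0233, lay between 187 and 325 FPKM in all libraries and was called in no comparison.

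Aconitase, PAS_chr1-3_0104, and mitochondrial malate dehydrogenase (a), PAS_chr2-1_0238, were marked by replicate 1 of G14_37. Aconitase was at 1707, 479 and 563 FPKM in G14_37 and at 371, 326 and 407.04 in Parent_37, and malate dehydrogenase (a), the TCA gene of highest mean level, at 3017, 503 and 537 and at 566, 592.9 and 556. The call for aconitase between the strains at 37 °C (1.07, SE 0.38, adjusted p = 0.031) fell to 0.50 without that library and was then not called, and it was also lost without any 1 of the Parent_37 libraries (adjusted p of 0.053 to 0.092). The remaining TCA genes, namely malate dehydrogenase (b), 2 components of the alpha-ketoglutarate dehydrogenase complex and a putative aconitase isozyme, were called in no comparison with all libraries. Of these, malate dehydrogenase (b), PAS_chr4_0815, was the 1 gene that was higher in each Parent_37 library than in any of Parent_30 (428, 870 and 497 against 350, 347 and 331 FPKM). Its strain difference at 37 °C was -0.35 (SE 0.55, adjusted p = 0.61) with all libraries and -1.15 (adjusted p = 0.0054), which was called, without replicate 1 of G14_37.

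**Figure D3:**
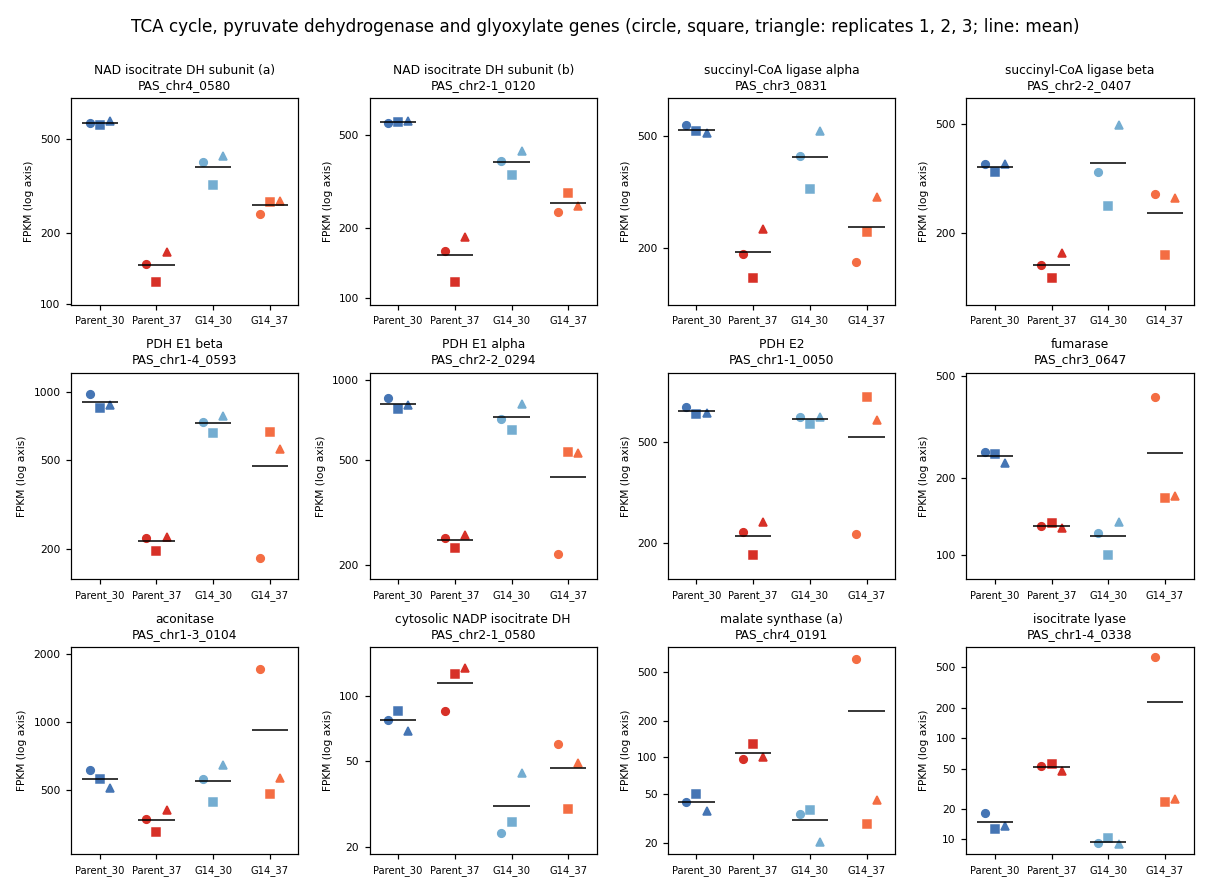
FPKM (vertical log axes) of 12 TCA cycle, pyruvate dehydrogenase and glyoxylate genes in the 4 groups, with circles, squares and triangles for replicates 1, 2 and 3 and a line at each arithmetic mean. The subunits of isocitrate dehydrogenase show 4 separate groups, whereas the circle of G14_37 lies far from the other two libraries for pyruvate dehydrogenase, aconitase, malate synthase and isocitrate lyase.

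Of the 4 pyruvate dehydrogenase genes, the 3 that encode catalytic subunits were called lower in Parent_37 than in Parent_30, where 7.56% of all transcripts were. The E1 beta gene, PAS_chr1-4_0593, was at 975, 848 and 871 FPKM in Parent_30, 224, 197 and 227 in Parent_37, 734, 658 and 780.9 in G14_30 and 183, 663 and 556 in G14_37. The 3 Parent_37 libraries lay below all of Parent_30 and G14_30, and replicate 1 of G14_37 lay with them while replicates 2 and 3 did not. In the parent the log2 fold change was -2.05 for E1 beta (SE 0.37, adjusted p = 0.00067), -1.70 for E1 alpha, PAS_chr2-2_0294 (SE 0.28, adjusted p = 0.00036), and -1.63 for E2, PAS_chr1-1_0050 (SE 0.36, adjusted p = 0.0024).

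E1 alpha was at 221, 536 and 530 FPKM and E2 at 216, 748 and 607 in G14_37, so the same library was low for all 3 genes. With all libraries, E2 was higher in G14_37 than in Parent_37 (1.12, SE 0.36, adjusted p = 0.020), while E1 beta (0.91) and E1 alpha (0.68) were not called. Without replicate 1 the 3 values were 1.66, 1.49 and 1.10 and each was called, and the differences in heat response were 1.77 for E2, 1.80 for E1 beta and 1.27 for E1 alpha, also called. The call for E2 at 37 °C was lost without replicate 2 or 3 of G14_37 or 2 of Parent_37, at 0.77 to 0.997 (adjusted p of 0.067 to 0.076). The calls of E1 beta and E1 alpha as lower in G14_37 than in Parent_30 (-1.14 and -1.02) were lost without replicate 1 of G14_37, at -0.56 and -0.60. The first was also lost without any 1 of Parent_30 (adjusted p of 0.054 to 0.070) and the second without its replicate 1 (-0.99). A mitochondrial phosphatase described as a regulator of this complex, PAS_chr4_0218, was at 84.4 to 99.8 FPKM in the other 9 libraries and at 144, 136 and 131 in G14_37. Its increase in G14_37 over Parent_37 was 0.58 (SE 0.08, adjusted p = 0.00018) and remained under the size threshold.

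The genes of the glyoxylate bypass spread widely within G14_37. Isocitrate lyase, PAS_chr1-4_0338 (chromosome 1, 2031599 to 2033248, plus strand), was at 18.1, 12.8 and 13.5 FPKM in Parent_30, 53.4, 55.1 and 47.1 in Parent_37, 9.19, 10.4 and 8.99 in G14_30 and 635, 23.5 and 25.2 in G14_37. Malate synthase (a), PAS_chr4_0191, was at 43.4, 49.9 and 36.4, then 97.4, 130 and 101, then 34.6, 37.3 and 20.2, and then 643, 28.3 and 44.4 FPKM. In each gene the parent libraries at 37 °C were all above those at 30 °C, and replicate 1 of G14_37 exceeded every other library. These genes, which were singled out after their values were seen, were called in no comparison of the 4-group fit, where the spread of G14_37 enters every test.

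For isocitrate lyase the parent's heat change was 1.75 (SE 0.95, adjusted p = 0.13) with all libraries and 1.75 (adjusted p = 1.03e-06) without replicate 1 of G14_37. For malate synthase (a) it was 1.32, with adjusted p of 0.21 and 0.00062. Without that library, isocitrate lyase was lower in G14_37 than in Parent_37 (-1.06), as was malate synthase (a) (-1.59), where with it the values were 0.49 and -0.21. Isocitrate lyase was then also higher in G14_37 than in G14_30 (1.27, adjusted p = 0.00082). Malate synthase (b), PAS_chr1-4_0459, was higher in G14_37 than in Parent_30 (1.07, SE 0.25, adjusted p = 0.0052), and 0.69, not called, without replicate 1.

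Pyruvate carboxylase, PAS_chr2-2_0024, which refills the cycle with oxaloacetate, was at 324, 445 and 408 FPKM in Parent_37 and 223, 177 and 175 in G14_37 (-1.02, SE 0.13, adjusted p = 7.2e-05). The groups did not overlap, and values without 1 library ran from -1.16 to -0.93, so that the size threshold was crossed in 8 of 12 cases and missed without replicate 2 or 3 of G14_37 or of Parent_37. At 30 °C it was lower in G14 (-0.71, SE 0.13, adjusted p = 0.0024), which is under the size threshold.

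Among the genes of ethanol and acetate metabolism, 5 of 12 were called in the heat comparison of the parent, 3 higher and 2 lower, where 14% of all transcripts were higher and 7.56% lower. Mitochondrial alcohol dehydrogenase III, PAS_chr2-1_0472 (chromosome 2, 875193 to 876245, plus strand), had the highest mean level of the 69 genes. It was at 7614, 5913 and 4580 FPKM in Parent_30 and at 1192, 1306 and 1015 in Parent_37. In G14 it was at 5708, 6838 and 913 FPKM at 30 °C and at 4444, 14327 and 2652 at 37 °C. The Parent_37 libraries were thus below the other groups except for replicate 3 of G14_30, which was lower still. The log2 fold change was -2.34 in the parent (SE 0.74, adjusted p = 0.018) and 2.25 between G14_37 and Parent_37 (SE 0.74, adjusted p = 0.023), and the heat responses differed by 3.09 (SE 1.05, adjusted p = 0.041). The call in the parent was lost without replicate 1 of Parent_30 or 3 of Parent_37 (adjusted p = 0.058 and 0.051), and that at 37 °C without replicate 2 of G14_37 or any 1 of Parent_37 (adjusted p of 0.050 to 0.090). The difference in heat response held in 4 of the 12 fits that left out 1 library, and was lost without replicate 3 of G14_30, replicate 2 of G14_37 or any 1 parent library, at values of 2.16 to 3.27.

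The main pyruvate decarboxylase, PAS_chr3_0188, which makes acetaldehyde, and a bifunctional alcohol and formaldehyde dehydrogenase, PAS_chr2-1_0313, were also lower in every Parent_37 than in every Parent_30 library, but were not called with all groups in the fit. The decarboxylase was at 8362, 6223 and 4816 FPKM in Parent_30, 2074, 2088 and 2295 in Parent_37, 5537, 5367 and 1345 in G14_30 and 387, 7828 and 1882 in G14_37. Replicate 3 of G14_30 was low in it, as in both dehydrogenases (243 FPKM against 2211 and 2273 for PAS_chr2-1_0313). The decarboxylase change in the parent was -1.55 (SE 0.89, adjusted p = 0.15), and was called in a fit of the parent libraries alone (adjusted p = 0.00014). The dehydrogenase change was -1.95 (SE 0.82, adjusted p = 0.060), with 0.0011 in the parent libraries alone and 0.0094 without replicate 3 of G14_30.

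Alcohol dehydrogenases described as NADPH-dependent enzymes of medium chain length moved apart. Gene (a), PAS_chr3_0006, was at 283, 253 and 244 FPKM in Parent_30 and rose to 978, 954 and 825 in Parent_37, while it was at 165, 145 and 144 in G14_30 and 203, 137 and 171 in G14_37. The parent rose by 1.82 (SE 0.14, adjusted p = 2.6e-06), G14 changed by 0.15 (SE 0.14, adjusted p = 0.44), and the difference was -1.66 (SE 0.20, adjusted p = 0.00019). Gene (b), PAS_chr4_0576, did the reverse in the parent, from 122, 121 and 129 FPKM to 53.7, 44.0 and 46.4, and stayed between 135 and 171 in all 6 G14 libraries. It fell by 1.36 on the log2 scale in the parent (SE 0.11, adjusted p = 2.3e-06), was 1.64 higher in G14_37 than in Parent_37 (adjusted p = 3e-07), and its heat responses differed by 1.34 (SE 0.15, adjusted p = 9.9e-05). For both genes the difference in heat response was called in all 12 fits that left out 1 library. Gene (c), PAS_chr1-1_0357, was lower in G14 at both temperatures, at 39.9 to 42.9 against 73.9 to 77.3 FPKM at 30 °C and at 43.8 to 54.5 against 98.2 to 112 at 37 °C. Its change at 37 °C was -1.08 (SE 0.09, adjusted p = 3.7e-06) and crossed the size threshold in 11 of 12 such fits (-0.98 without replicate 1 of G14_37).

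Of the aldehyde dehydrogenases, which oxidise acetaldehyde or fatty aldehydes, mitochondrial genes (b) and (d) were called higher in the heated parent. Gene (b), PAS_chr4_0470, was at 30.5, 32.4 and 28.0 FPKM in Parent_30, 106, 102 and 90.9 in Parent_37, 25.8, 28.1 and 29.6 in G14_30 and 68.0, 26.1 and 35.9 in G14_37. Every Parent_37 library was above all the others. The change was 1.68 in the parent (SE 0.26, adjusted p = 0.00023) and -1.29 between G14_37 and Parent_37 (SE 0.26, adjusted p = 0.0014, and -0.99 without replicate 2 of G14_37). The difference in heat response (-1.17, SE 0.36, adjusted p = 0.029) held in 4 of 12 fits without 1 library, and leaving out replicate 2 or 3 of either G14 group, 1 or 3 of Parent_30 or 1 or 2 of Parent_37 gave values of -1.18 to -0.87 with no call. Gene (d), PAS_chr4_0043, rose by 1.61 in the parent (SE 0.46, adjusted p = 0.012), from 9.33 to 11.9 up to 30.6 to 42.5 FPKM, and was at 101, 21.1 and 21.3 in G14_37. Its call for G14_37 against Parent_30 (1.66) was lost without replicate 1 of G14_37, at 0.92, while the difference in heat response (-0.28 with all libraries) was then called at -1.01. Gene (a), PAS_chr3_0987, spread from 37.6 to 778 FPKM in G14_37 and was called in no comparison with all libraries. In the parent it went from 41.8 to 47.2 up to 114 to 215 FPKM, without overlap (1.88, SE 0.90, adjusted p = 0.095). That rise was called without replicate 1 of G14_37 (adjusted p = 8.6e-05) and in a fit of the parent libraries alone (adjusted p = 8.27e-05). Without replicate 1 of G14_37, gene (a) was lower in G14 at 30 °C (-1.36, adjusted p = 0.0019) and at 37 °C (-2.05, adjusted p = 0.00012). The cytoplasmic gene, a fatty aldehyde dehydrogenase and mitochondrial gene (c) were not called.

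**Figure D4:**
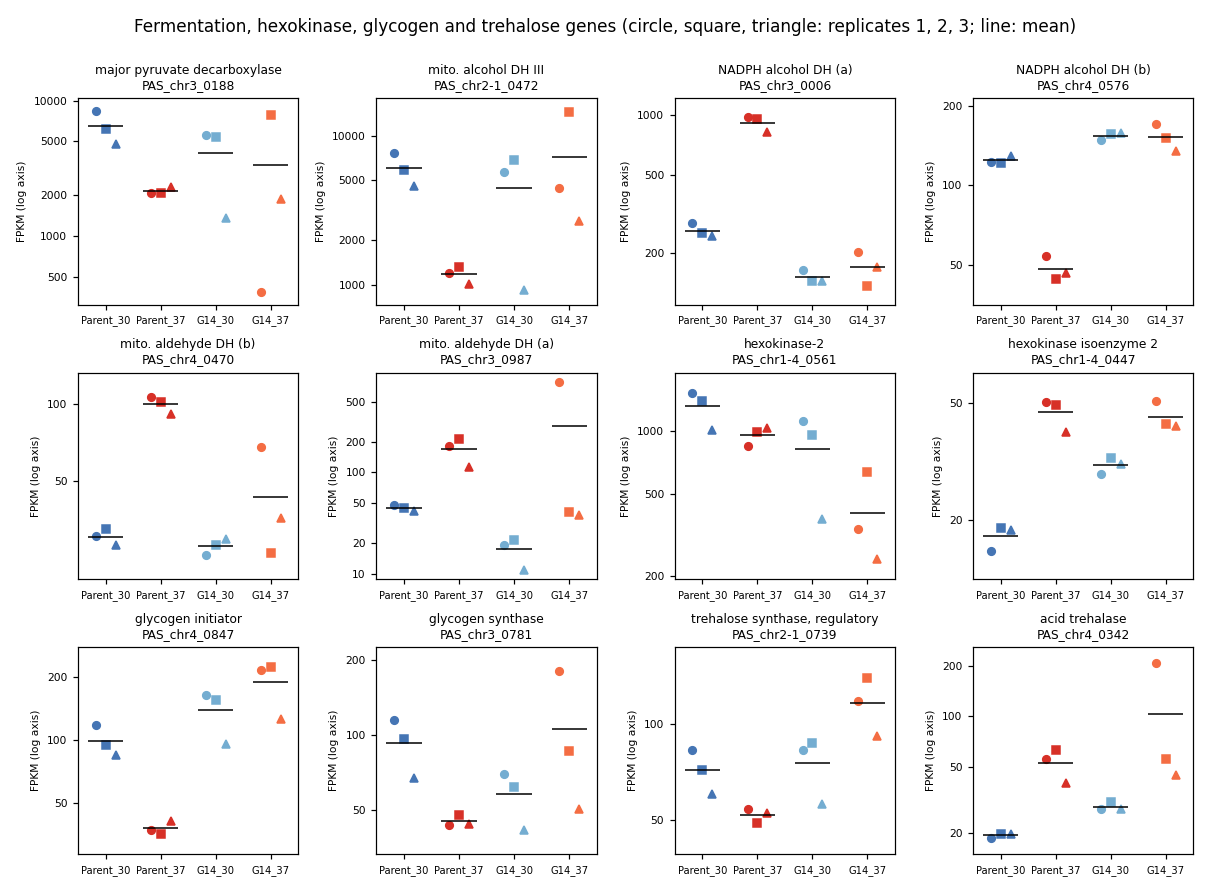
FPKM (vertical log axes) of 12 fermentation, hexokinase, glycogen and trehalose genes in the 4 groups, with circles, squares and triangles for replicates 1, 2 and 3 and a line at each arithmetic mean. NADPH alcohol dehydrogenase (a) and (b) and the glycogen initiator set Parent_37 apart from the other 3 groups, while pyruvate decarboxylase and alcohol dehydrogenase III vary widely within G14.

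Of the 7 genes placed in the pentose phosphate pathway by their descriptions, 3 were called in the heated parent (against 21.6% of all transcripts). 6-Phosphogluconate dehydrogenase fell, and a weakly expressed gene described as transaldolase and another described as transketolase rose. 6-Phosphogluconate dehydrogenase, PAS_chr3_0277, an NADPH-forming step, was at 1809, 1736 and 1650 FPKM in Parent_30 and 800, 799 and 804 in Parent_37 (-1.11, SE 0.25, adjusted p = 0.0026). In G14 it was at 1409 to 1682 FPKM at 30 °C and at 893, 2103 and 1419 at 37 °C, where all 3 libraries exceeded Parent_37. Without replicate 1 of G14_37 the strains differed by 1.11 at 37 °C (adjusted p = 0.00014), against 0.79 and no call with it, and the difference in heat response was 1.26 (adjusted p = 0.00092), against 0.94 and no call. Glucose-6-phosphate dehydrogenase, PAS_chr2-1_0308, the entry step, was at 400 to 408 FPKM in Parent_30 and 239 to 278 in Parent_37 (-0.61, SE 0.22, adjusted p = 0.030) and was not called.

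Transaldolase, which exchanges carbon units between sugar phosphates, has 2 genes that lie head to tail on chromosome 2 with 331 bases between them. Transaldolase (b), PAS_chr2-2_0338 (1750248 to 1751306), was at 8.61, 9.70 and 10.1 FPKM in Parent_30, 23.4, 25.4 and 24.7 in Parent_37, 11.9, 14.3 and 15.5 in G14_30 and 76.8, 16.2 and 20.8 in G14_37. Transaldolase (a), PAS_chr2-2_0337 (1751638 to 1752612), was at 1612 to 1759 FPKM in Parent_30 and 892 to 1065 in Parent_37. Gene (b) rose by 1.29 in the parent (SE 0.43, adjusted p = 0.022) and gene (a) changed by -0.77 (SE 0.22, adjusted p = 0.0099), so that the ratio of (a) to (b) went from 160 to 204 down to 36.1 to 44.1. In G14 that ratio was 74.3 to 123 at 30 °C and 9.51, 88.8 and 52.5 at 37 °C. The call of gene (b) in the parent was lost without replicate 1 of Parent_30 or replicate 2 or 3 of Parent_37 (adjusted p of 0.053 to 0.061), and that for G14_37 against Parent_30 (1.56) was lost without replicate 1, at 0.89.

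Transketolase, the other enzyme of this kind, was the description of 3 genes, each as similar to Tkl2p. Whether all 3 act in this pathway was not tested. Transketolase (a), PAS_chr1-4_0150, was at 530 to 562 FPKM in Parent_30 and 262 to 298 in Parent_37, with a change of -0.94 (SE 0.13, adjusted p = 0.00014) that remained under the size threshold, and -0.15 in G14, and these responses differed by 0.79 (SE 0.19, adjusted p = 0.0087). Transketolase (b), PAS_chr3_0834, was at 33.9, 27.4 and 28.8 FPKM in Parent_30 and 69.6, 87.7 and 69.2 in Parent_37 (1.30, SE 0.33, adjusted p = 0.0059). Transketolase (c), PAS_chr3_0832, lay near it on chromosome 3 with 2 genes between them and with the same length, so reads could be shared between (b) and (c) and their values are uncertain. The ratio of (b) to (c) was 0.992 to 1.19 in Parent_30, 1.69 to 1.75 in Parent_37, 1.03 to 1.18 in G14_30 and 1.29 to 1.48 in G14_37.

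The 3 genes of hexose phosphorylation and isomerisation each had their own pattern. Hexokinase-2, PAS_chr1-4_0561, was at 1538, 1401 and 1021 FPKM in Parent_30, 855, 997 and 1044 in Parent_37, 1121, 967 and 380 in G14_30 and 340, 636 and 242 in G14_37. G14_37 lay below both parent groups, by -1.36 relative to Parent_37 (SE 0.42, adjusted p = 0.016) and -1.80 relative to Parent_30 (SE 0.42, adjusted p = 0.0045). The first of these calls was lost without replicate 3 of G14_37 (adjusted p = 0.060). A second gene, described as hexokinase isoenzyme 2 (PAS_chr1-4_0447), was at 15.7 to 18.8 FPKM in Parent_30 and higher in all other groups, at 39.7 to 50.4 in Parent_37, 28.6 to 32.6 in G14_30 and 41.7 to 50.8 in G14_37. It rose by 1.34 in the parent (SE 0.12, adjusted p = 5.7e-06) while its change in G14 was 0.53 (SE 0.12, adjusted p = 0.013). The ratio of the 2 hexokinase genes was 54.9 to 97.7 in Parent_30 and 17.0 to 26.3 in Parent_37. In G14 the ratio was 12.2 to 39.1 at 30 °C and 5.79 to 14.95 at 37 °C, so that the G14 groups overlapped.

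Glucose-6-phosphate 1-epimerase, PAS_chr1-4_0042, which interconverts the anomers of glucose-6-phosphate, was at 947, 1197 and 986.7 FPKM in Parent_37, at 524 to 561.4 in Parent_30, at 404 to 425 in G14_30 and at 317 to 484 in G14_37. The parent's change was 0.93 (SE 0.15, adjusted p = 0.00037) and that of G14 -0.08, and the 2 differed by -1.01 (SE 0.22, adjusted p = 0.0050), a size close to the threshold. It was -0.85 to -0.997 and not called without replicate 2 or 3 of G14_30, 1 of G14_37, 3 of Parent_30 or 2 of Parent_37. Between the strains at 37 °C it was lower in G14 by -1.39 (SE 0.15, adjusted p = 2.1e-05), with all 12 such fits calling it.

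Of the 4 trehalose genes, 3 were called at least once over comparisons that share libraries, where 35.6% of all transcripts were. The phosphatase subunit of the trehalose-6-phosphate synthase/phosphatase complex, PAS_chr1-3_0054, was at 444, 353 and 428 FPKM in Parent_37 and 121, 247 and 179 in G14_37 (-1.21, SE 0.23, adjusted p = 0.0011, and -0.95 without replicate 1). The regulatory subunit of the same complex, PAS_chr2-1_0739, was at 54.02, 48.6 and 52.6 FPKM in Parent_37 and 119, 140 and 92.1 in G14_37 (1.14, SE 0.19, adjusted p = 0.00046). These 2 subunits thus differed between the strains in opposite directions at 37 °C, with no overlap of the groups in either. For the regulatory subunit the heat responses differed by 1.09 (SE 0.27, adjusted p = 0.011), and by 0.89 to 0.98, under the size threshold, without replicate 3 of G14_30, replicate 2 of G14_37 or replicate 1 of Parent_30.

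Acid trehalase, PAS_chr4_0342, which splits extracellular trehalose, was 1 of the 3 genes called between 37 and 30 °C in G14, each of which was also called in the same direction in the parent. It was at 18.7, 19.6 and 19.9 FPKM in Parent_30, 55.1, 62.8 and 39.95 in Parent_37, 27.9, 30.5 and 28.0 in G14_30 and 207, 55.8 and 44.6 in G14_37. In each strain all libraries at 37 °C were above those at 30 °C, with a change of 1.37 (SE 0.44, adjusted p = 0.019) in the parent and 1.45 (SE 0.44, adjusted p = 0.034) in G14. The call in the parent was lost without replicate 1 or 2 of Parent_37 (adjusted p = 0.052 and 0.069). The call in G14 was lost without any 1 of the G14_30 libraries or replicate 2 of Parent_30 (adjusted p of 0.051 to 0.091), and without replicate 1 of G14_37, where the change was 0.77. Against Parent_30, G14_37 was higher by 1.997 (SE 0.44, adjusted p = 0.0034), and by 1.32, still called, without that library. Neutral trehalase, PAS_chr4_0816, was at 75.2 to 183 FPKM and was not called.

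Of the 7 glycogen genes, 2 were called higher in G14_37 than in Parent_37 (28.6%, against 21.7% of all transcripts). The fitted values of all 7 were above 0 (52.8% of all transcripts were), with a median of 0.72 against 0.05. Without replicate 1 of G14_37, 6 were above 0 (50.9% of all transcripts), the median was 0.54 against 0.01, and glucoamylase (PAS_chr4_0579) went from 0.78 to -0.31. The self-glucosylating initiator of glycogen synthesis, PAS_chr4_0847, which starts each new chain, was at 118, 94.5 and 85.1 FPKM in Parent_30, 37.0, 35.4 and 40.9 in Parent_37, 165, 155 and 95.9 in G14_30 and 217.9, 224 and 127 in G14_37. Parent_37 was below all other groups without overlap. The initiator fell by 1.36 on the log2 scale in the parent (SE 0.25, adjusted p = 0.00072), was 2.25 higher in G14_37 than in Parent_37 (SE 0.25, adjusted p = 2.1e-05), and its heat responses differed by 1.80 (SE 0.35, adjusted p = 0.0029), calls that held in all 12 fits without 1 library.

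Glycogen synthase, PAS_chr3_0781, which lengthens the chains, was at 114, 96.4 and 66.8 FPKM in Parent_30, 43.6, 47.6 and 43.8 in Parent_37, 69.8, 61.9 and 41.6 in G14_30 and 180, 85.8 and 50.2 in G14_37. Its G14 libraries spread over each other at the 2 temperatures. It was called between the strains at 37 °C (1.02, SE 0.38, adjusted p = 0.040) and in the difference in heat response (1.69, SE 0.54, adjusted p = 0.032), and each call held in 5 of 12 fits without 1 library. The strain call was lost without replicate 1 or 2 of G14_37 (0.54 and 1.07), replicate 2 of G14_30 or of Parent_30, or any 1 of Parent_37 (adjusted p of 0.052 to 0.114). The difference in heat response was lost without replicate 2 or 3 of G14_30, 1 or 2 of Parent_30 or any 1 of Parent_37, at 1.47 to 1.75. Glycogen phosphorylase, PAS_chr2-1_0173, which releases glucose-1-phosphate, had the highest mean of the group, lay between 78.7 and 162 FPKM and was not called. The debranching enzyme, PAS_chr2-2_0437, and a putative phosphatase required for glycogen accumulation, PAS_chr1-4_0280, remained under the size threshold. The phosphatase gene was at 125 to 136 FPKM in G14_30 against 67.6 to 74.3 in Parent_30 (0.87, SE 0.09, adjusted p = 3.1e-05). With TPM scaling both were called, the debranching enzyme between the strains at 37 °C (1.01) and the phosphatase gene at 30 °C (1.06). A sporulation-specific glucoamylase, PAS_chr4_0579, was at 247 FPKM in replicate 1 of G14_37 and at 15.1 to 50.03 in all other libraries. Without that library it was called lower in G14_30 than in Parent_30 (-1.27, adjusted p = 0.0002), where it was not called with it (adjusted p = 0.20).

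**Figure D5:**
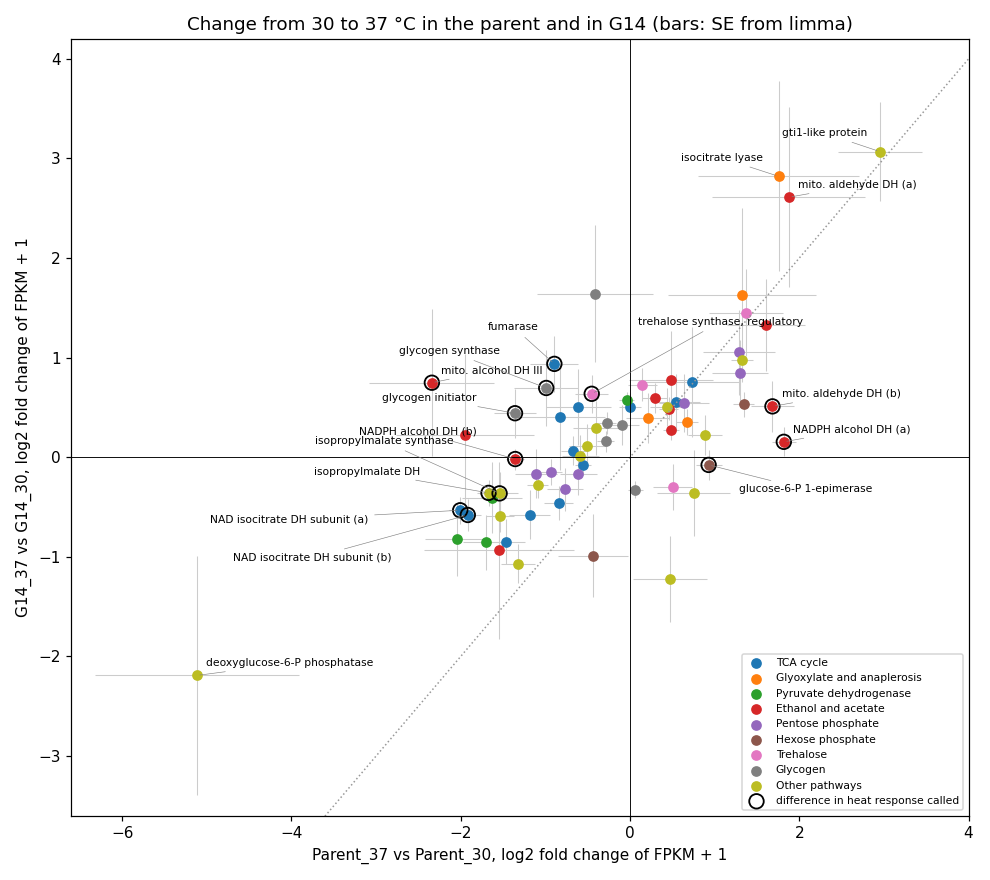
Log2 fold change of FPKM + 1 from 30 to 37 °C in the parent (horizontal axis) and in G14 (vertical axis) for the 69 genes, coloured by role, with bars for the SE from limma, a dotted line of equal change and rings around the 13 genes whose difference in heat response was called. Each ringed gene has a vertical value that is closer to 0 than its horizontal value or of the other sign, and the isocitrate dehydrogenase subunits lie near -2 and -0.5.

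Of the 15 genes with roles outside these pathways, 10 were called at least once, where 35.6% of all transcripts were. The 2 phenylpyruvate decarboxylases, enzymes of aromatic amino acid breakdown, showed the largest strain differences of the 69 genes. Gene (a), PAS_chr4_0314, was at 2293, 2185 and 1898 FPKM in Parent_30, 3332, 3885 and 3495 in Parent_37, 299, 420 and 341.6 in G14_30 and 532, 344 and 110 in G14_37. Gene (b), PAS_chr3_0095, was at 1135, 1082 and 866, then 1196, 1524 and 1566, then 186.5, 207 and 175, and then 164, 96.1 and 32.6 FPKM. Every G14 library was below every parent library in both genes. The log2 fold changes were -2.59 (SE 0.44, adjusted p = 0.0012) and -2.43 (SE 0.43, adjusted p = 0.0018) at 30 °C and -3.71 and -4.12 (adjusted p = 3.5e-05 and 1.5e-05) at 37 °C, and all were called in each fit without 1 library. Without replicate 1 of G14_37 the difference in heat response was also called for both (-1.59 and -2.21, adjusted p = 0.022 and 0.0033), as was the change of gene (b) in G14 (-1.73, adjusted p = 0.0090). They made up 2 of the 5 genes lower in G14 at 30 °C, beside fumarase, cytosolic isocitrate dehydrogenase and the gene that follows.

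That gene, PAS_chr3_0251, is described as similar to a gluconate transport inducer of *Schizosaccharomyces pombe*. It was at 23.6, 25.7 and 28.7 FPKM in Parent_30, 170, 252 and 208 in Parent_37, 5.46, 7.31 and 8.60 in G14_30 and 195, 36.3 and 40.7 in G14_37. In each strain all libraries at 37 °C were above all at 30 °C, by 2.95 in the parent (SE 0.50, adjusted p = 0.00044) and 3.07 in G14 (SE 0.50, adjusted p = 0.0042, and 2.30 without replicate 1), and the 2 responses differed by 0.12 (SE 0.71, adjusted p = 0.91). G14 was lower at 30 °C by -1.75 (SE 0.50, adjusted p = 0.023), a call that was lost without replicate 1 or 2 of G14_30 or any 1 of Parent_30 (adjusted p of 0.057 to 0.079) and with limma voom (adjusted p = 0.077). At 37 °C the value was -1.63 with all libraries and -2.40 without replicate 1, and it was not called without replicate 2 or 3 of G14_37 or 2 of Parent_37 (adjusted p of 0.059 to 0.065). Its call for G14_37 over Parent_30 (1.32, SE 0.50, adjusted p = 0.046) was kept in 2 of 12 fits, and was 0.55 without replicate 1 of G14_37.

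Of these 15 genes, 6 were called lower and 2 higher in the parent at 37 °C, where 7.56% and 14% of all transcripts were. Among the 6 were 4 enzymes of amino acid synthesis. They are genes that the words happened to match and do not stand for amino acid synthesis as a class. Homoaconitase, the homocitrate synthases and isopropylmalate isomerase, also enzymes of amino acid synthesis, were not called lower. For leucine, isopropylmalate synthase, PAS_chr2-1_0415, went from 268, 232 and 217.6 FPKM to 79.1, 69.5 and 97.5, and isopropylmalate dehydrogenase, PAS_chr3_0039, from 299, 272 and 262 to 96.8, 76.3 and 87.1. In G14_37 they were at 209, 234 and 123 and at 139, 179 and 130 FPKM, above every Parent_37 library. Their heat responses differed by 1.18 (SE 0.31, adjusted p = 0.013) and 1.31 (SE 0.19, adjusted p = 0.00049), the first of which was 0.998 without replicate 2 of G14_37. The synthase was also higher in G14_37 than in Parent_37 (1.15, SE 0.22, adjusted p = 0.00096, and 0.98 without that library). Homo-isocitrate dehydrogenase of lysine synthesis, PAS_chr2-2_0168, fell by 1.54 (SE 0.16, adjusted p = 1.5e-05) and aspartic semialdehyde dehydrogenase, PAS_chr3_0471, by 1.09 (SE 0.13, adjusted p = 3.4e-05) in the parent. Homoaconitase, PAS_chr4_0795, another enzyme of lysine synthesis, was higher, at 85.5, 76.2 and 83.1 FPKM in Parent_37 against 39.2, 42.9 and 49.7 in Parent_30, with no overlap and a change of 0.88 (SE 0.20, adjusted p = 0.0031) under the size threshold. The difference in heat response of homo-isocitrate dehydrogenase was 0.95 with all libraries and 1.04, which was called, without replicate 1 of G14_37. A predicted isopropylmalate carrier, PAS_chr1-3_0186, was lower at 37 °C in both strains, by -1.32 in the parent and -1.07 in G14 (SE 0.20 each, adjusted p = 0.00019 and 0.0064), and the change in G14 was -0.84 without replicate 3 of G14_30. Succinate semialdehyde dehydrogenase, PAS_chr1-3_0024, rose from 54.4 to 59.7 up to 131 to 160 FPKM in the parent (1.33, SE 0.13, adjusted p = 1.1e-05) and by 0.98 in G14 (adjusted p = 0.0019).

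A deoxyglucose-6-phosphate phosphatase, PAS_chr2-1_0016, had the widest range of the 69 genes. It was at 1563 to 2866 FPKM in Parent_30, 42.6 to 99.0 in Parent_37, 880, 912 and 160 in G14_30 and 11.01, 746 and 150 in G14_37. It fell in the parent (-5.12, SE 1.203, adjusted p = 0.0037), a call kept in all 12 fits without 1 library. Its level in G14_37 was below that in Parent_30 (-4.26, SE 1.203, adjusted p = 0.013, and -2.66 without replicate 1 of G14_37). Its libraries spread widely within both G14 groups, and its strain difference at 37 °C was 0.86 with all libraries and 2.46 (adjusted p = 0.021) without replicate 1. Without that library it was also called at 30 °C (-2.07, adjusted p = 0.042) and in the difference in heat response (4.53, adjusted p = 0.0068). The 2 homocitrate synthases, isopropylmalate isomerase and trans-aconitate methyltransferase were not called.

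Another 23 genes of the same pathways carry descriptions that the words did not match, such as succinate dehydrogenase, ribose-5-phosphate isomerase and phosphoglucomutase. In the parent's heat comparison 2 of them were called higher and 3 lower (21.7%, against 21.6% of all transcripts). For the difference in heat response 1 was called higher and 1 lower (8.70%, against 15.4% of all transcripts, of which 4.31% higher and 11.1% lower). NAD-dependent glycerol-3-phosphate dehydrogenase, PAS_chr2-2_0111, fell by 2.07 in the parent (SE 0.22, adjusted p = 1.9e-05) and its responses differed by 1.54 (SE 0.32, adjusted p = 0.0039). A phosphoglucomutase, PAS_chr2-1_0771, which interconverts glucose-1-phosphate and glucose-6-phosphate, went the other way, with a rise of 1.80 in the parent (SE 0.21, adjusted p = 3.3e-05) and a difference in heat response of -1.47 (SE 0.30, adjusted p = 0.0037). Carnitine acetyltransferase, PAS_chr1-4_0074, rose by 1.35 in the parent (SE 0.38, adjusted p = 0.0098), and a ribose-5-phosphate isomerase, PAS_chr4_0213, fell by 1.07 on the log2 scale (SE 0.29, adjusted p = 0.0090, and -0.99 in the 1 of 12 fits without 1 library that did not call it). Mitochondrial malic enzyme, PAS_chr3_0181, was at 288 to 369 FPKM in Parent_30 and 63.5 to 89.9 in Parent_37 (-2.16, SE 0.41, adjusted p = 0.0009), the direction of the pyruvate dehydrogenase subunits. The other ribose-5-phosphate isomerase, PAS_chr4_0212, was higher in G14 at both temperatures, by 1.84 at 30 °C (SE 0.24, adjusted p = 0.00019) and 1.51 at 37 °C (SE 0.24, adjusted p = 0.00027).

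Among these 23 genes, replicate 1 was the highest of the G14_37 libraries in 14, the lowest in 7 and between the others in 2. Phosphoenolpyruvate carboxykinase, PAS_FragB_0061, the committed step of sugar synthesis from such sources, was at 1719 FPKM there and at 40.7 and 23.1 in replicates 2 and 3. Fructose-1,6-bisphosphatase, PAS_chr3_0868, was at 999, 91.4 and 70.6 FPKM, and mitochondrial glycerol-3-phosphate dehydrogenase, PAS_chr3_0579, at 1424, 117 and 134. The iron-sulfur subunit of succinate dehydrogenase, PAS_chr3_1111, was at 1446, 388 and 352 FPKM and the flavoprotein subunit, PAS_chr4_0733, at 1389, 327 and 307. Mitochondrial malic enzyme went the other way, at 59.7, 237.8 and 157 FPKM. These genes were chosen after their values were seen, and their part in the results of this library was not tested.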

How the data were processed

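The authors deposited 1 table of FPKM values per transcript for 12 RNA-seq libraries (4 groups of 3) with positions, lengths and descriptions; the submitters' processing notes list CASAVA, HISAT2 2.0.5 and featureCounts 1.5.0-p3. The genome version is not given in the sources used here, and coordinates are those of the table. FPKM times length was a whole number of fragments for 100% of the values in each library (tolerance 0.05), so fragments were recovered for the voom alternative, and 1 fragment per kb equalled 0.0417 to 0.0822 FPKM. limma 3.58.1 in R 4.3.3 was fitted to log2(FPKM + 1) with a mean per group, an intensity trend and 8 residual degrees of freedom, over the 5080 transcripts of the table, all of which passed the filter of a mean of at least 1 FPKM, and p-values were adjusted by Benjamini-Hochberg over all of them. The added 1 understates changes of low genes. The test was checked on simulated data with the same spread in all groups, changes in Parent_37 alone and no outlying library. That setting differs from the spread of G14_37, so the check does not cover it. A second deposited file lists transcripts without measurements and was not used.

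The members, the list of 23 further genes and the roles were chosen with earlier results of these data known. The text names each member called in any comparison and the highest-mean member of each role, with at most 8 called genes of a role by size of change; further genes were named after their values were seen. Alternatives were TPM scaling, median-of-ratios factors, pseudocount 0.1, no filter, a filter of 10 FPKM, subtraction of the lowest value, the compared groups alone, voom, a replicate block and leaving out each library.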

Additional observations from a re-analysis of the deposited data

Results flagged for a closer look

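The change from 30 to 37 °C differed between G14 and the parent for 13 of the 69 genes by limma's test of that difference (background 15.4% of all transcripts). In each case the value is the log2 change in G14 minus that in the parent. It was 3.09 for alcohol dehydrogenase III (PAS_chr2-1_0472), 1.83 for fumarase (PAS_chr3_0647), 1.8 for the glycogen initiator (PAS_chr4_0847) and 1.69 for glycogen synthase (PAS_chr3_0781). The isocitrate dehydrogenase subunits PAS_chr4_0580 and PAS_chr2-1_0120 differed by 1.47 and 1.34, and NADPH alcohol dehydrogenase (b) (PAS_chr4_0576) by 1.34. The leucine genes PAS_chr3_0039 and PAS_chr2-1_0415 differed by 1.31 and 1.18, and the regulatory trehalose synthase subunit (PAS_chr2-1_0739) by 1.09. Lower changes in G14 were found for NADPH alcohol dehydrogenase (a) (PAS_chr3_0006), with -1.66, mitochondrial aldehyde dehydrogenase (b) (PAS_chr4_0470), with -1.17, and glucose-6-phosphate 1-epimerase (PAS_chr1-4_0042), with -1.01. Of the 13, 7 were called in all 12 fits without 1 library: both isocitrate dehydrogenase subunits, fumarase, NADPH alcohol dehydrogenase (a) and (b), isopropylmalate dehydrogenase and the glycogen initiator.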

How the results depend on the processing

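For the 39 genes named for a call or for the highest mean of their role, no called value changed sign under any alternative run. Signs did change for genes named after their values were seen. Without replicate 1 of G14_37, isocitrate lyase went from 0.49, not called, to -1.06, called, between the strains at 37 °C. Malate synthase (a) went from 0.31 to -1.07, then called, in the difference in heat response. With the compared groups alone, counts of called genes were 0 for heat in G14 (limma; lowest adjusted p 0.0472 with a change under the size threshold, 18 genes at an unadjusted p under 0.05), against 3 with voom on all groups, 8 at 30 °C and 9 for G14_37 over Parent_30. In those fits the calls at 37 °C of E2 (adjusted p = 0.084), aconitase (0.103), glycogen synthase (0.086) and PAS_chr3_0251 (0.068) were lost. With voom, transaldolase (b) in the parent was lost (adjusted p = 0.064). TPM scaling gave 9 for heat in G14, where the sums of FPKM differ between libraries. Leaving out 1 library gave 24 to 30 for heat in the parent, 2 to 13 for heat in G14, 3 to 8 at 30 °C, 13 to 23 at 37 °C, 9 to 19 for G14_37 over Parent_30 and 8 to 22 for the difference in heat response, where 22 was without replicate 1 of G14_37 and 8 without replicate 3 of G14_30. For heat in G14 there were 13, 12 and 5 without replicate 2, 3 or 1 of G14_37. At 30 °C there were 8 without replicate 1 of G14_37 and 3 without replicate 2 of G14_30 or replicate 1 or 2 of Parent_30, and for G14_37 over Parent_30 there were 9 without replicate 1 of G14_37. Same-numbered libraries did not deviate together throughout (r from -0.22 to 0.67, over 0.1 in 8 of 18 pairs), and with a replicate block 5 genes were called for heat in G14. No filter tests the same transcripts. Median-of-ratios factors left the medians over all transcripts nearly unchanged. A minimum of 10 FPKM removes no member, as the lowest member mean was 19.7 FPKM. Both runs could therefore move little, and all 234 named values kept their side of the thresholds in each. With 1 library left out, 2661 of 2808 values did so. With 3 libraries a group, an exact permutation test of 1 gene cannot go below 0.10.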
